A study of Mus musculus with 20 samples.

Results

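The levels of 10 genes of the smooth muscle contractile apparatus (Acta2, Actg2, Myh11, Cnn1, Tagln, Des, Tpm2, Smtn, Pcp4 and Pgm5) were followed across 20 microarrays of mouse bladders and metastases. The genes were taken by name, as rows of the deposited table to which the platform annotation gives exactly 1 of these symbols. Each had 1 such row, and they are 10 of the 30142 genes with a level on these arrays. All mice were FVB/N and are described as CKO mice, which carry floxed alleles, that of Rb1 among them, and are labelled as lacking p107 (Rbl1), the normal bladders included. There were 4 arrays of metastases, 1 titled as a metastasis with palbociclib (palbo metastasis), 3 of treated bladders, 7 of tumour bladders and 5 of normal bladders. Tumour bladders had been inoculated with an adenovirus coding for Cre recombinase, which deletes the floxed alleles in the cells it enters. Treated bladders came from mice given palbociclib, an inhibitor of the cell cycle kinases Cdk4 and Cdk6, at 150 mg/kg daily for 28 days, with the platinum drug cisplatin (CDDP) at 6 mg/kg each week. Sex, age and the organ from which a metastasis was taken are not given in the sources used here. Nothing there ties the arrays to animals either, so p-values cover only the spread among the arrays, which may be technical.

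Smooth muscle cells contract when calcium, through calmodulin, activates a kinase that phosphorylates the light chain of smooth muscle myosin, which then pulls on actin filaments. In the bladder these cells form the detrusor, the muscle layer that empties the organ, and they also line its arteries. Many of their contractile genes are switched on by serum response factor (Srf) together with its coactivator myocardin (Myocd), at a DNA element known as the CArG box, a run of A and T bases between CC and GG. In RNA from whole tissue, fewer smooth muscle cells and less contractile RNA per cell cannot be told apart.

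Promoter sequence was looked up to show how often this element stands just before the start of these genes. RefSeq (mouse build GRCm38.p6) gave the 250 bases before an annotated start of 7 of the 10 genes: Acta2, Cnn1, Des, Tpm2, Smtn, Pcp4 and Pgm5. A consensus CArG box, searched on both strands, was found in 0 of these 7 windows and in 1.40% of 27025 promoters. A near match, with a single G or C among the 6 middle bases, was found in 2 of the 7, Acta2 and Pcp4, and in 7.38% of all promoters. The matching stretches are shown in the direction of transcription, with the near matches in capitals. They are descriptions of letters in these windows, not sites of binding. The stretch shown for Acta2 lies inside the full RefSeq span of that gene, chr19:34240336-34255585. The start used for Acta2 is thus not its outermost annotated start.
Acta2, minus strand of chr19:34255378-34255477, from 104 to 5 bases before the start: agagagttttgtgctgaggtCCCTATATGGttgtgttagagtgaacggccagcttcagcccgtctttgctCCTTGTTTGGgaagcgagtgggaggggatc
Pcp4, plus strand of chr16:96467479-96467528, from 127 to 78 bases before the start: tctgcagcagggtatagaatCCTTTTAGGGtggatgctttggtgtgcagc

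The arrays were sorted into 2 kinds, and metastases, tumour bladders and normal bladders each held both. On 8 arrays (metastases 3 and 4, tumour bladders 3, 4 and 5, and normal bladders 4, 5 and 6) the dim rows were more scattered and the bright rows varied little with those of any other array. These 8 were picked with the genes of every list used here left out, by a standard deviation above 0.30 over dim rows and a highest correlation below 0.25 with any other array. The correlations are of bright rows, as deviations from each row's mean over all arrays, and not of the levels themselves. The other 12 are metastases 1 and 2, the palbo metastasis, the treated bladders, tumour bladders 1, 2, 6 and 7, and normal bladders 1 and 2. Of these, tumour bladder 1 (0.356) and treated bladder 2 (0.308) also exceeded the cut on dim rows. Treated bladder 1 was kept with a highest correlation of 0.267, against 0.210 for normal bladder 6 among the 8. The mean of the 10 genes lay between 6.82 and 7.07 on the 8 arrays, whatever the group, and between 5.14 and 9.90 on the 12 (log2 levels here and throughout). On the 8 arrays it was 6.87 and 6.89 in metastases, 6.82 to 6.97 in tumour bladders and 6.93 to 7.07 in normal bladders, so that the markers of bladder muscle hardly told these tissues apart. What sets these arrays apart was not tested. Levels of Rb1 ran from 5.44 to 6.45 and those of Rbl1 from 6.02 to 8.30 over all arrays. The mean of Rbl1, 6.67, lay above the median gene level of 5.396, so its row does not show the loss that the labels state. Whether that row covers the deleted part of the gene is not given in the sources used here. Xist, a gene of the inactive X chromosome of females, stood at 11.7 on normal bladders 1 and 2, against 5.44 to 5.73 on metastases 1 and 2, 6.04 to 10.1 on treated bladders and 5.43 to 5.86 on tumour bladders 1, 2, 6 and 7. Xist thus moved with every comparison against normal bladder over the 12 arrays. On these arrays it was also higher on treated than on tumour bladders, without overlap. Its part in the results was not tested.

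**Figure D1:**
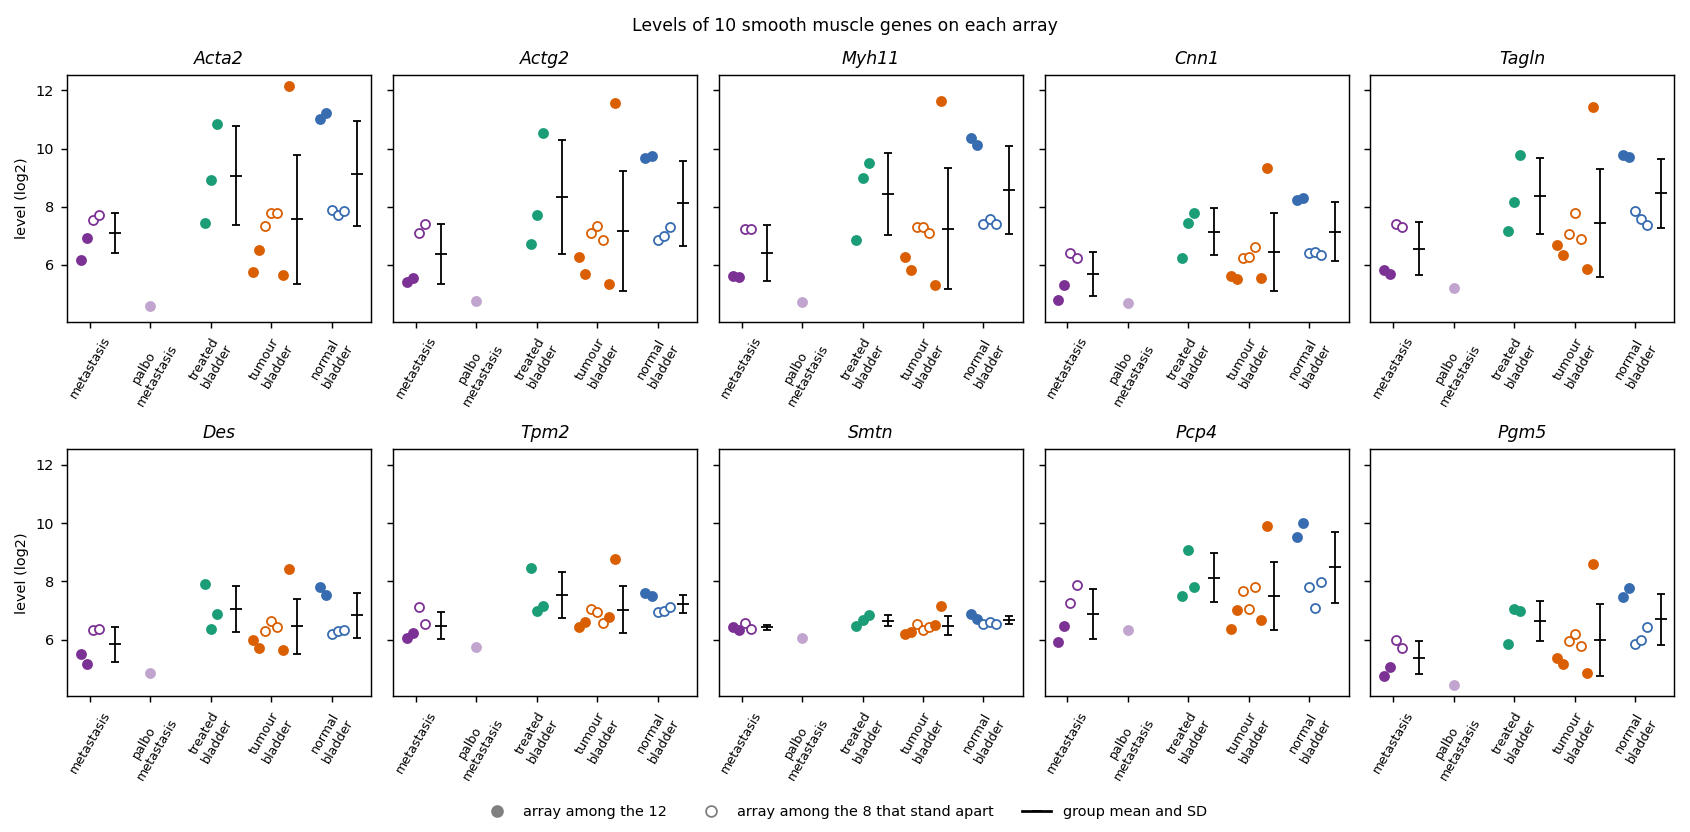
Log2 level of each gene on every array, by group. Filled points are the 12 arrays, open points are the 8 arrays that stand apart, and bars give the group mean and SD where a group has more than 1 array. The open points of a gene lie close together in every group, and tumour bladder 7 is the highest array for 9 of the 10 genes.

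The spread of the members differed between the kinds of array. Myh11, the heavy chain of smooth muscle myosin and a widely used marker of this cell type, had a standard deviation of 2.39 over the 12 arrays and 0.148 over the 8, a ratio of 16.2. The same ratio was 14.1 for Acta2, 11.1 for Actg2, 11.9 for Cnn1 and 9.14 for Des. It was lowest for Smtn, at 3.07, against a median of 1.002 over all genes. Smtn encodes smoothelin, a protein bound to actin in contractile smooth muscle, and its row moved little: its standard deviation over the 20 arrays, 0.25, was larger than that of 45.7% of all genes, against 99.96% for Acta2.

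Among the 10 members Acta2 had the widest range over the 20 arrays, 7.58 on the log2 scale. Acta2, the actin of vascular and many other smooth muscles, stood at 6.18, 6.94, 7.54 and 7.73 in metastases 1 to 4 and at 4.58 in the palbo metastasis. It stood at 7.45, 8.93 and 10.84 in treated bladders 1 to 3, had its lowest, median and highest value at 5.66, 7.33 and 12.16 in tumour bladders, and measured 11.01, 11.21, 7.88, 7.70 and 7.86 in normal bladders 1, 2, 4, 5 and 6. The groups overlapped widely, and the highest level of all was in a tumour bladder, number 7. Actg2, the actin most typical of visceral muscle such as bladder and gut, stood at 5.43, 5.55, 7.11 and 7.40 in metastases and at 4.76 in the palbo metastasis. Its treated bladders measured 6.73, 7.73 and 10.52, its tumour bladders 5.36, 6.85 and 11.55 (lowest, median, highest), and its normal bladders 9.66, 9.73, 6.87, 7.004 and 7.31. Actin genes are near-identical in their coding sequence, so rows of Acta2, Actg2 and the skeletal actin Acta1 may share signal. Acta1 stood at 9.23 on tumour bladder 7, where both smooth muscle actins were highest, but at 6.51 on treated bladder 3 and at 6.75 and 6.77 on normal bladders 1 and 2, where Acta2 was above 10. Shared signal was not tested.

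Myh11 stood at 5.61, 5.57, 7.23 and 7.24 in metastases and at 4.72 in the palbo metastasis. It measured 6.85, 8.99 and 9.51 in treated bladders, 5.31, 7.09 and 11.63 in tumour bladders (lowest, median, highest), and 10.35, 10.14, 7.42, 7.59 and 7.40 in normal bladders. Its highest metastasis lay below its lowest normal bladder, so these groups did not overlap. Metastases 3 and 4 and normal bladders 4, 5 and 6 differed by little, and the wide gap was between metastases 1 and 2 and normal bladders 1 and 2.

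Thin filament proteins followed the same array pattern. Cnn1, calponin, which binds actin and restrains myosin, ran from 4.79 to 6.41 in metastases and stood at 4.71 in the palbo metastasis. It ran from 6.23 to 7.78 in treated bladders, from 5.52 to 9.33 in tumour bladders and from 6.35 to 8.29 in normal bladders. Tagln, transgelin or SM22, an actin cross-linker used as an early marker of smooth muscle, ran from 5.69 to 7.42 in metastases and stood at 5.21 in the palbo metastasis. It ran from 7.17 to 9.77 in treated bladders, from 5.87 to 11.41 in tumour bladders and from 7.38 to 9.79 in normal bladders. For both genes tumour bladder 7 was the highest array of the 20 and the palbo metastasis the lowest. Smtn moved over a narrower range, from 6.34 to 6.56 in metastases, 6.06 in the palbo metastasis, 6.46 to 6.84 in treated bladders, 6.18 to 7.17 in tumour bladders and 6.55 to 6.87 in normal bladders.

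Pcp4, a small regulator of calmodulin found in bladder muscle and in neurons, stood at 5.91, 6.47, 7.26 and 7.87 in metastases and at 6.33 in the palbo metastasis. It measured 7.50, 9.08 and 7.81 in treated bladders, 6.35, 7.07 and 9.92 in tumour bladders (lowest, median, highest), and 9.54, 9.99, 7.82, 7.09 and 7.99 in normal bladders. It was the member whose highest array was a normal bladder, number 2, and whose lowest was not the palbo metastasis but metastasis 1. Pgm5, aciculin, a protein of the plaques that tie actin to the membrane, ran from 4.76 to 5.97 in metastases, stood at 4.44 in the palbo metastasis, and ran from 5.84 to 7.05 in treated bladders, 4.84 to 8.58 in tumour bladders and 5.85 to 7.78 in normal bladders.

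Tumour bladder 7 lay above every other tumour bladder for all 10 genes. Its mean over the members was 9.90, against 5.82 to 6.97 in the other 6 tumour bladders and 8.83 and 8.86 in normal bladders 1 and 2. The urothelium list was also highest there, at 10.2 against 5.51 to 7.04 in the other tumour bladders and 8.28 and 8.60 in normal bladders 1 and 2. The proliferation list stood at 5.14 on it, against 5.62 to 6.54 in the other tumour bladders. The part of these cell types in the members' levels was not tested.

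Metastases had the lowest means of the 4 replicated groups for every member, and the comparison with normal bladder held the largest differences. Myh11 averaged 6.41 ± 0.95 in metastases (SD, n = 4) and 8.58 ± 1.52 in normal bladders (SD, n = 5), a log2 difference of -2.17. In limma its unadjusted p was 0.0495 and its adjusted p 0.721. Pcp4 averaged 6.88 ± 0.86 in metastases and 8.49 ± 1.23 in normal bladders, a difference of -1.61 with an unadjusted p of 0.0286 and an adjusted p of 0.720 in limma. No member passed the adjusted threshold of 0.05 in limma, as did no gene of the 30142 (0% called). All 10 members were lower in metastases, where 47.3% of all genes were higher, with a median difference of -1.53 against -0.013 over all genes. At an unadjusted p under 0.05, 5 members were lower (Pcp4, Pgm5, Cnn1, Tagln and Myh11), where 3.81% of all genes were and 3.1% were higher, and Myh11 alone did not overlap, where 1.79% of all genes were lower without overlap.

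Over the 12 arrays the same comparison rested on 2 metastases and 2 normal bladders and its differences were larger. Acta2 averaged 6.56 ± 0.54 in metastases and 11.1 ± 0.14 in normal bladders (SD, n = 2 each), a log2 difference of -4.56 with a 95% interval from -8.78 to -0.33. Myh11 averaged 5.59 ± 0.025 in metastases and 10.2 ± 0.15 in normal bladders, a difference of -4.65. Pcp4 averaged 6.19 ± 0.39 in metastases and 9.77 ± 0.32 in normal bladders, a difference of -3.58 with the smallest unadjusted p of the members, 0.00527, and an adjusted p of 0.505 in limma. Again no member passed the adjusted threshold in limma, where 3 genes did (0.00995% of all), and the members' median difference was -3.39. At an unadjusted p under 0.05, 8 members were lower, all but Tpm2 and Smtn, where 2.99% of all genes were. All 10 were lower, where 47.6% of all genes were higher, and all 10 without overlap, which with 2 arrays a group held for 25% of all genes. Within the 8 arrays, with 2 metastases and 3 normal bladders, the median difference was -0.15.

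**Figure D2:**
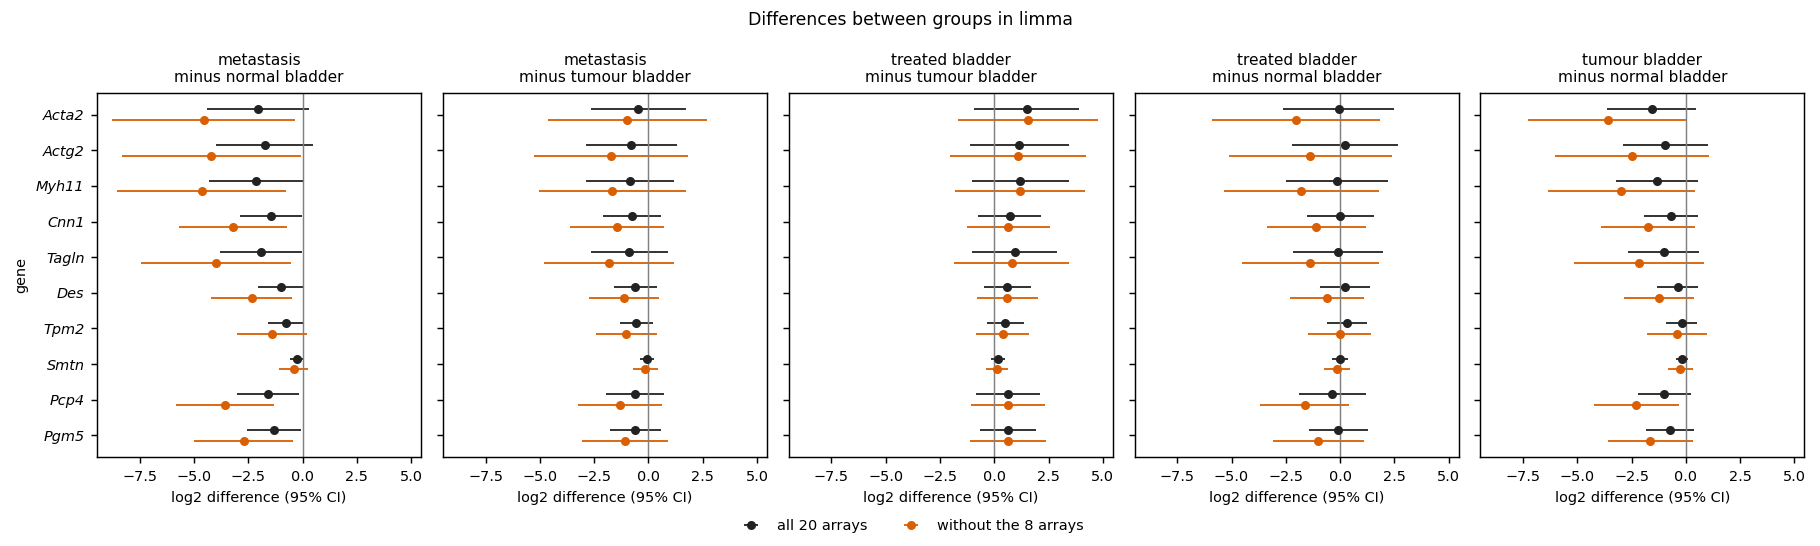
Log2 differences of each gene in 5 comparisons, with 95% confidence intervals from limma, over all 20 arrays (black) and without the 8 arrays that stand apart (orange). Intervals widen without the 8 arrays, and the differences of metastases from normal bladder are the largest, with a median of -1.53 over all arrays and -3.39 without the 8.

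Other cell types moved alongside. Over the 12 arrays all 10 genes of the macrophage list were higher in metastases than in normal bladders, with list means of 8.54 and 7.63 in metastases 1 and 2 against 5.86 and 5.71 in normal bladders 1 and 2. The urothelium list, with 10 of 11 genes lower, stood at 5.42 and 6.45 in the same metastases and at 8.28 and 8.60 in those normal bladders. The 13 genes of the proliferation list were all higher, at 6.58 and 5.69 in metastases against 4.96 and 5.01 in normal bladders. Among the genes that passed over the 12 arrays, which were named after their values were seen, Ahsg, a protein secreted by liver, was 4.95 higher in metastases on the log2 scale, Lyz1, a lysozyme, 3.89 higher, and Ctsk, a lysosomal protease, 2.29 higher. Pericytes, the mural cells of small vessels, also express Acta2, and their list stood at 5.82 and 5.74 in these metastases against 6.25 and 6.14 in these normal bladders. The part of these cell types in the members' difference was not tested.

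Set against tumour bladders, metastases were lower for all 10 members, where 43.9% of all genes were higher, with a median log2 difference of -0.62 against -0.026 over all genes, and 0 members and 0 genes passed in limma (0% called). No member had an unadjusted p under 0.05, where 2.42% of all genes were higher and 3.37% lower at that level. Tagln averaged 6.56 ± 0.92 in metastases (SD, n = 4) and 7.43 ± 1.85 in tumour bladders (SD, n = 7), a difference of -0.87. Tumour bladder 7 carried much of this: without it the median difference was -0.19, and Acta2 was 0.29 higher in metastases. Over the 12 arrays the median was -1.21, all 10 were lower, where 38.3% of all genes were higher, and 0 members passed, where 0.00995% of all genes did. Without tumour bladder 7 this median was -0.37, with 8 members lower. With all 12 arrays Cnn1, Tagln, Des and Tpm2 were lower without overlap, 4 of 10 members where 7.64% of all genes were. The macrophage list averaged 8.09 in metastases and 6.67 in tumour bladders on these arrays, and the urothelium list 5.94 in metastases and 7.21 in tumour bladders; their part in the members' difference was not tested. In the palbo metastasis, which had no replicate, the mean of the 10 genes was 5.14, below the 5.65 and 5.83 of metastases 1 and 2. Its macrophage list stood at 8.14 and its urothelium list at 4.88, the lowest of the 20 arrays.

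In the bladders inoculated with Cre virus the members were lower on average than in normal bladders, with wide overlap. Acta2 averaged 7.57 ± 2.21 in tumour bladders (SD, n = 7) and 9.13 ± 1.81 in normal bladders (SD, n = 5), a log2 difference of -1.56 with a 95% interval from -3.61 to 0.48. Smtn averaged 6.48 ± 0.33 in tumour bladders and 6.66 ± 0.14 in normal bladders, a difference of -0.18, the smallest of the 10. All members were lower, where 53.1% of all genes were higher, with a median of -0.83 against 0.012 over all genes, but 0 members and 0 genes passed in limma (0% called), and 0 members had an unadjusted p under 0.05, where 2.39% of genes were higher and 1.86% lower. Without tumour bladder 7 the median difference was -1.29, and without normal bladder 2 it was -0.50. Over the 12 arrays the median was -1.96, with all 10 members lower where 61.4% of all genes were higher, and 0 were called. There 1 member, Pcp4, had an unadjusted p under 0.05 (0.0260, adjusted p 0.993 in limma), where 1.86% of all genes were lower at that level. On these arrays Pcp4 averaged 7.49 ± 1.64 in tumour bladders (SD, n = 4) and 9.77 ± 0.32 in normal bladders (SD, n = 2). No member separated these groups, where 4.67% of all genes were lower without overlap, since tumour bladder 7 lay within or above the normal bladders for each gene. Other lists moved over the same arrays: urothelium averaged 7.21 in tumour bladders and 8.44 in normal bladders, macrophage 6.67 in tumour bladders and 5.78 in normal bladders, and proliferation 5.86 in tumour bladders and 4.99 in normal bladders. Endothelium, with 8 of 9 genes lower, averaged 5.86 in tumour bladders and 6.26 in normal bladders. Their part in the members' difference was not tested.

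After treatment with palbociclib and CDDP the members stood higher on average than in tumour bladders, by less than the spread between arrays. Acta2 averaged 9.07 ± 1.70 in treated bladders (SD, n = 3) and 7.57 ± 2.21 in tumour bladders (SD, n = 7), a log2 difference of 1.504 with a 95% interval from -0.91 to 3.92. Myh11 averaged 8.45 ± 1.41 in treated bladders and 7.25 ± 2.08 in tumour bladders, a difference of 1.203 with an interval from -1.02 to 3.43. All 10 differences were above 0, as were 42.6% of those of all genes, with a median of 0.67 for the members and -0.023 for all genes. In limma 0 members and 0 genes passed (0% called), and 0 members had an unadjusted p under 0.05, where 0.182% of genes were higher and 0.159% lower. Without tumour bladder 7 the median was 1.13, and over the 12 arrays it was 0.65, with all 10 members and 37.4% of all genes above 0 and none called. With 1 of these arrays left out as well it ran from 0.33, without tumour bladder 6, to 1.55, without tumour bladder 7. Xist was also higher on treated than on tumour bladders over the 12 arrays, without overlap, and its part was not tested. The urothelium list, with 11 of 11 genes higher, ran from 7.47 to 8.63 in treated bladders, against 5.51 to 10.2 in tumour bladders, and the macrophage list, with 10 of 10 genes lower, ran from 5.89 to 6.43 in treated bladders, against 5.88 to 7.19 in tumour bladders. Their part in the members' difference was not tested.

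Against normal bladders the treated bladders had no common direction over all arrays. The members' median difference was -0.035, with 4 higher and 6 lower, where 46.7% of all genes were higher, and 0 members and 0 genes passed in limma (0% called) while 0 members had an unadjusted p under 0.05, where 0.209% of genes were higher and 0.149% lower. Myh11 averaged 8.45 ± 1.41 in treated bladders (SD, n = 3) and 8.58 ± 1.52 in normal bladders (SD, n = 5), a difference of -0.13 with an interval from -2.48 to 2.23. Over the 12 arrays, with 2 normal bladders left, the median was -1.24, all 10 were lower, where 52.9% of all genes were higher, and 0 passed. Without treated bladder 1 as well the median was -0.71. With all 12 arrays Acta2, Myh11, Cnn1, Pcp4 and Pgm5 were lower in treated bladders without overlap, 5 of 10 members where 6.08% of all genes were. Acta2 averaged 9.07 ± 1.70 in treated bladders (SD, n = 3) and 11.1 ± 0.14 in normal bladders (SD, n = 2) on these arrays. The urothelium list averaged 7.95 in treated bladders and 8.44 in normal bladders there, the fibroblast list 6.73 in treated bladders and 7.24 in normal bladders, the endothelium list 5.86 in treated bladders and 6.26 in normal bladders, and the macrophage list 6.18 in treated bladders and 5.78 in normal bladders. The proliferation list, with 13 of 13 genes higher, averaged 5.64 in treated bladders and 4.99 in normal bladders. Their part in the members' difference was not tested.

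By group mean the order over the 12 arrays was normal bladder, treated bladder, tumour bladder, metastasis and palbo metastasis, from high to low, for 9 of the 10 members. For Pcp4 the palbo metastasis stood above the metastases. Over all 20 arrays Actg2, Cnn1, Des and Tpm2 had treated bladders above normal bladders. No pair of neighbouring groups in that order differed in limma at the adjusted threshold for any member, in either set of arrays, and the palbo metastasis could not be tested.

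Across the 12 arrays the members varied together. Pairwise correlations ran from 0.737 to 0.994 with a median of 0.920 (12 arrays that share groups and normalisation, given as a description). Over the 8 arrays they ran from -0.788 to 0.693 with a median of 0.0013. Cnn1 followed the mean of the other 9 most closely, at 0.992 over the 12 arrays, and Des and Tpm2 least, at 0.880 and 0.792.

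Des and Tpm2 parted from the rest on treated bladder 1. Des encodes desmin, the intermediate filament of smooth, skeletal and heart muscle, and Tpm2 encodes beta-tropomyosin, which lies along actin in smooth and skeletal muscle. Des stood at 7.93, 6.37 and 6.88 in treated bladders 1 to 3 and Tpm2 at 8.46, 6.99 and 7.17. On a scale from the lowest (0%) to the highest (100%) of the 12 arrays, treated bladder 1 had Des at 85.6% and Tpm2 at 89.3%, while the other 8 members lay between 28.9% and 38.9%. On tumour bladder 1, the other array where both lay above the rest, they were at 31.7% and 23.6%, against 23.5% at most for the other 8. Without treated bladder 1 the correlation with the other 9 members was 0.969 for Des and 0.928 for Tpm2.

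The same array stood out for skeletal muscle. All 15 genes of the skeletal muscle list were highest on treated bladder 1 of the 20 arrays, with a list mean of 8.46 against 5.15 to 6.597 on the others. Tnnc2, the calcium sensor of fast muscle, stood at 10.3 there against 8.13 at most elsewhere, and Atp2a1, the calcium pump of fast muscle, at 10.02 against 7.33. Myh4, a fast myosin, stood at 9.65 against 7.20. Among the 14 cytoskeletal and anchoring genes, 7 were higher on treated bladder 1 than on both other treated bladders, 3 were lower than on both and 4 lay between. For neither list was the share of all genes that were highest on treated bladder 1 computed. Chosen here after their values were seen, Nexn stood at 9.001 on this array against 6.94 and 6.89 on treated bladders 2 and 3, while Synpo2 stood at 7.16 against 7.38 and 8.45. Without treated bladder 1, the difference between treated and tumour bladders was 0.17 for Des, against 0.61 with it, and 0.050 for Tpm2, against 0.51 with it, while that of Acta2 was 2.32, against 1.504 with it. The source of the skeletal muscle signal was not tested.

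**Figure D3:**
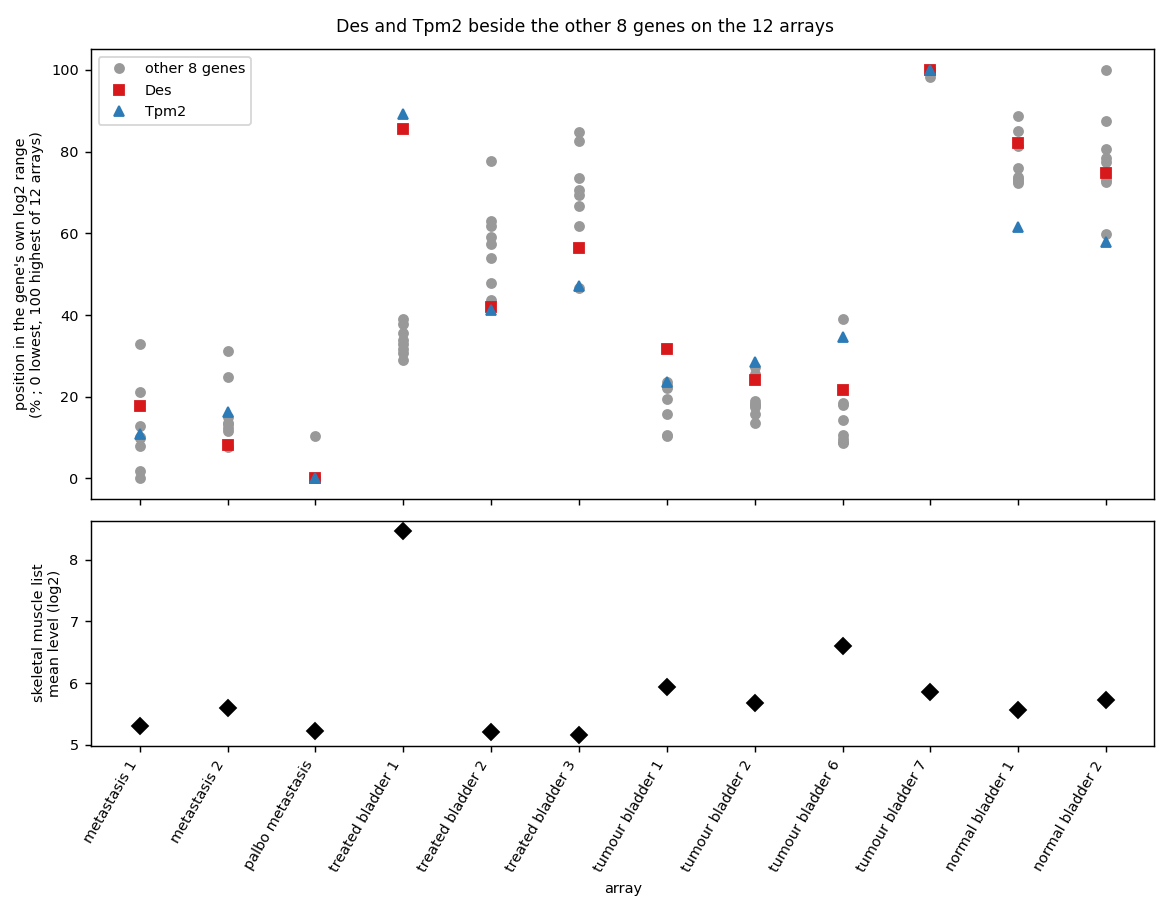
Upper panel, position of each gene within its own log2 range over the 12 arrays (0% lowest, 100% highest), with Des as squares, Tpm2 as triangles and the other 8 genes as grey circles. Lower panel, mean log2 level of the 15 skeletal muscle genes on the same arrays. On treated bladder 1 Des and Tpm2 lie at 85.6% and 89.3%, the other genes lie between 28.9% and 38.9%, and the skeletal muscle mean is 8.46.

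Wider lists of genes that act in smooth muscle, some of them in many other cells as well, showed how far the pattern reached. Of 15 contractile partners, 12 were lower in metastases than in normal bladders over all arrays, where 47.3% of all genes were higher. Their median difference was -0.58, with 0 called and 2 lower at an unadjusted p under 0.05 (3.81% of all genes). These were Ppp1r12b, a targeting subunit of myosin phosphatase, at -0.29 (unadjusted p 0.00508, adjusted p 0.717 in limma), and Cald1, caldesmon, an actin-bound inhibitor of myosin, at -0.74 (unadjusted p 0.0263, adjusted p 0.720 in limma). Over the 12 arrays 7 of the 15 were lower at that level (2.99% of all genes). Ppp1r12a, a related targeting subunit, averaged 8.46 ± 0.83 in treated bladders and 7.48 ± 1.09 in tumour bladders. Tpm1, alpha-tropomyosin, averaged 6.95 ± 0.30 in metastases and 7.55 ± 0.45 in normal bladders, an uncalled difference of -0.60. Among the 15, Ppp1r12c, Rhoa and Rock1 had the lowest correlations with the members over the 12 arrays, at -0.076, -0.14 and 0.21. Flna, Ppp1cb and Ppp1r12a stood at 0.8965, 0.894 and 0.936, and Myl9 was highest, at 0.986.

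Of 14 cytoskeletal and anchoring genes, 11 were lower in metastases than in normal bladders, where 47.3% of all genes were higher. Their median difference was -0.33, against -0.013 over all genes. At an unadjusted p under 0.05, 3 were lower, where 3.81% of all genes were, and none was called. Dmd, dystrophin, which links actin to the membrane, averaged 5.59 ± 0.37 in metastases and 6.45 ± 0.62 in normal bladders, and Nexn, an actin-binding protein, 6.48 ± 0.40 in metastases and 7.64 ± 0.48 in normal bladders. Synm, the intermediate filament protein synemin, differed by -1.03. Pdlim3, a protein of actin anchoring sites, averaged 6.73 ± 0.91 in treated bladders and 5.61 ± 1.16 in tumour bladders. Vcl, vinculin, a general adhesion protein, averaged 7.03 ± 0.22 in treated bladders and 6.69 ± 0.60 in tumour bladders. Vim, vimentin, the intermediate filament of fibroblasts and many other cells, correlated with the members at -0.61 over the 12 arrays.

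All 14 genes of excitation and calcium handling were lower in metastases than in normal bladders, where 47.3% of all genes were higher, with a median of -0.36. At an unadjusted p under 0.05, 5 were lower, where 3.81% of all genes were, and none was called. Pde5a, the phosphodiesterase that degrades cyclic GMP in smooth muscle, averaged 5.95 ± 0.51 in metastases and 7.58 ± 1.42 in normal bladders. Kcnma1, the pore of a calcium-activated potassium channel, differed by -0.74, and Ryr2, a calcium release channel, by -0.25. P2rx1, the ATP receptor through which nerves excite the detrusor, averaged 6.996 ± 0.99 in treated bladders, 6.12 ± 1.35 in tumour bladders and 7.10 ± 0.87 in normal bladders. Atp2a2, a calcium pump, averaged 9.20 ± 0.47 in treated bladders and 8.52 ± 0.91 in tumour bladders, Jph2, a junctional membrane protein, 5.49 ± 0.51 in treated bladders and 5.16 ± 0.48 in tumour bladders, and Pln, the inhibitor of that pump, 4.65 ± 0.24 in tumour bladders and 4.99 ± 0.47 in normal bladders.

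Of the 11 regulators around Srf and myocardin, 7 were lower in metastases than in normal bladders, where 47.3% of all genes were higher. Their median difference was -0.096, with none called and none at an unadjusted p under 0.05. Myocd averaged 5.11 ± 0.35 in metastases and 5.67 ± 0.63 in normal bladders, a difference of -0.55. Its correlation with the members over the 12 arrays was 0.935, that of Srf was 0.780, that of Mrtfb 0.711 and that of Mrtfa -0.64. Hand2 and Smarcd3 differed by -0.43 and -0.18 between metastases and normal bladders, and Gata6 by -0.49 between tumour and normal bladders. Foxf1, Srf and Elk1 differed by 0.19, 0.18 and -0.16 between treated and tumour bladders.

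**Figure D4:**
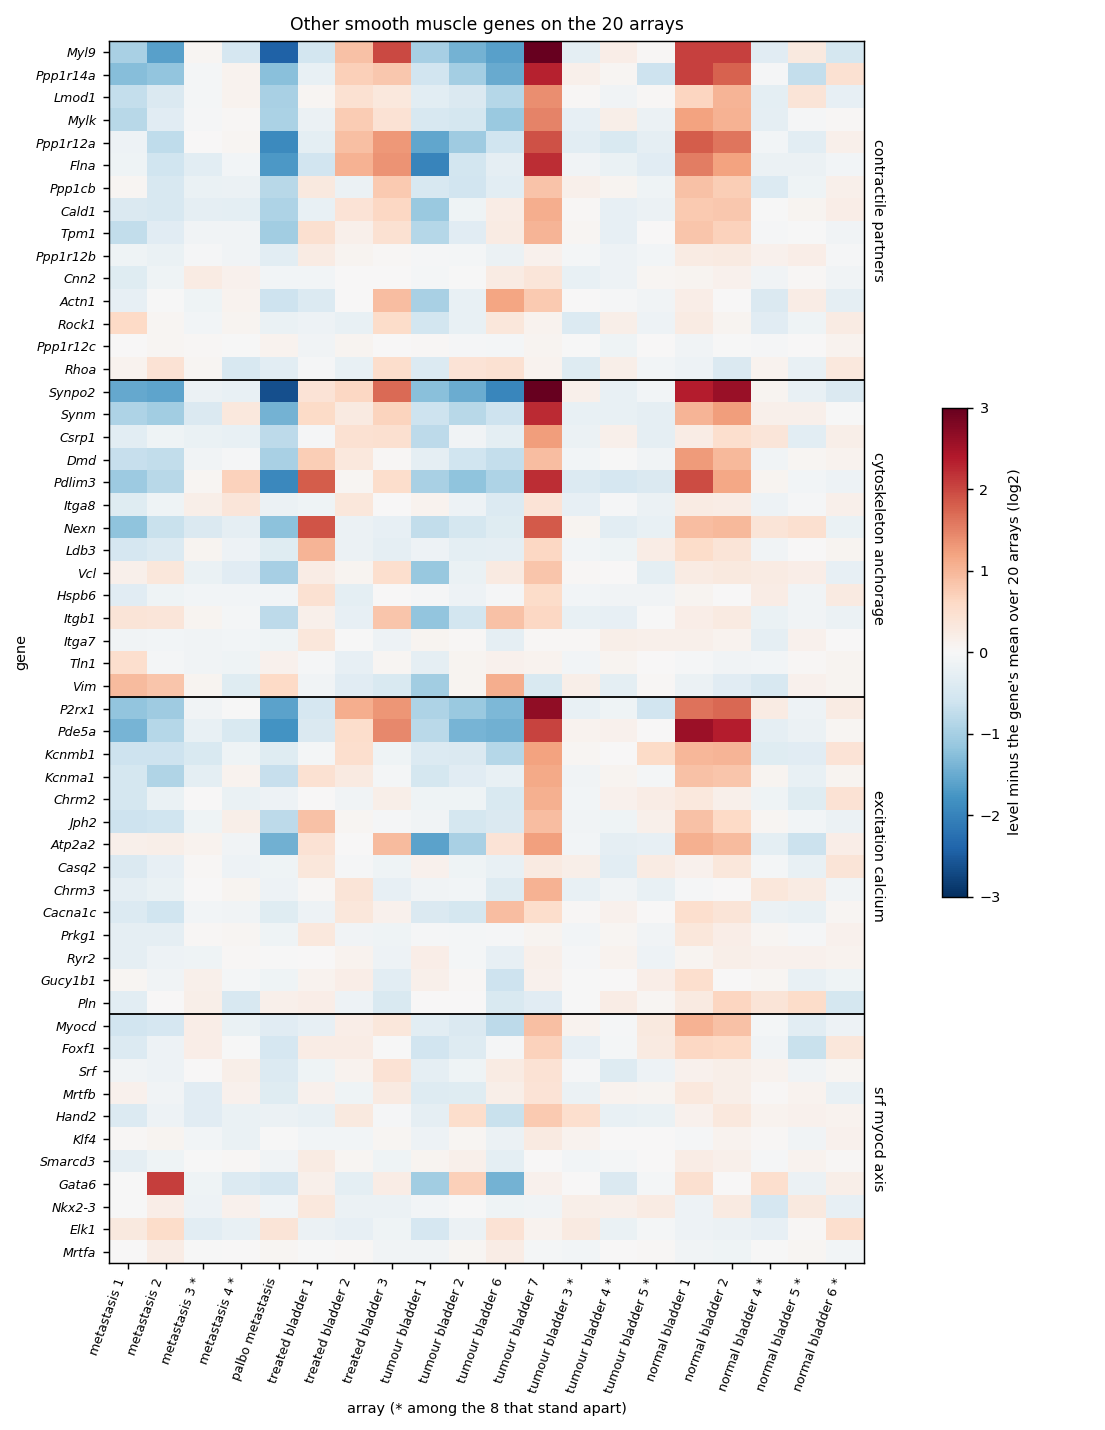
Levels of the 54 genes of the wider lists on the 20 arrays as differences from each gene's own mean (log2, colour scale cut at 3 and -3). Some of these genes, such as Vim and Vcl, are not particular to smooth muscle. Genes are sorted within each list by correlation with the members over the 12 arrays. Arrays marked with an asterisk are the 8 that stand apart, where most genes are near their mean. Myl9, Synpo2 and P2rx1 lead their lists, high on tumour bladder 7 and normal bladders 1 and 2 and low on the palbo metastasis.

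Genes most like the mean of the 10 members over the 12 arrays were ranked among 16693 genes. The 10 highest were Synpo2 (r = 0.995), P2rx1 (0.988), Myl9 (0.986), Wfdc15b (0.982), Upk1a (0.981), Snx31 (0.979), Id4 (0.978), Ppp1r14a (0.977), Lmod1 (0.976) and Synm (0.974). Synpo2 encodes an actin-binding protein of smooth and striated muscle, Myl9 the regulatory light chain of smooth muscle myosin, Ppp1r14a an inhibitor of myosin phosphatase and Lmod1 a smooth muscle leiomodin. Upk1a is a uroplakin, a membrane protein of the cells that line the bladder lumen, and not a muscle gene. It stood at 5.46 and 5.99 in metastases 1 and 2, 4.07 in the palbo metastasis, 9.20, 9.91 and 10.9 in treated bladders, 7.84, 6.01, 5.48 and 14.2 in tumour bladders 1, 2, 6 and 7, and 11.01 and 12.3 in normal bladders 1 and 2. Not all 11 genes of the urothelium list ran so close to the members: the correlation was 0.399 for Upk3b, 0.764 for Krt20, a keratin, and 0.816 to 0.981 for the other 9. Over the 8 arrays the correlation was -0.55 for Synpo2, 0.815 for P2rx1, -0.24 for Myl9, 0.082 for Wfdc15b and -0.23 for Upk1a. It was 0.047 for Snx31, 0.438 for Id4, 0.502 for Ppp1r14a, -0.52 for Lmod1 and 0.252 for Synm.

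The 5 genes at the other end were Doc2b (-0.970), Nfam1 (-0.936), Xrcc6 (-0.927), Fap (-0.925) and Trpm2 (-0.924). Over the 8 arrays their correlations were 0.851, -0.15, -0.13, 0.239 and 0.594 in the same order. Fap, a protease of activated fibroblasts, stood at 5.96 and 5.87 in metastases 1 and 2 and at 5.78 in the palbo metastasis. It was at 5.12 to 5.44 in treated bladders, at 5.06 to 5.61 in tumour bladders 1, 2, 6 and 7, and at 5.15 and 4.98 in normal bladders 1 and 2. Nfam1 encodes a receptor of immune cells and Xrcc6 a subunit of the Ku protein of DNA repair. These ranges are narrow beside those of the members other than Smtn. The standard deviation over the 12 arrays was 0.322 for Smtn and 0.325 for Fap.

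**Figure D5:**
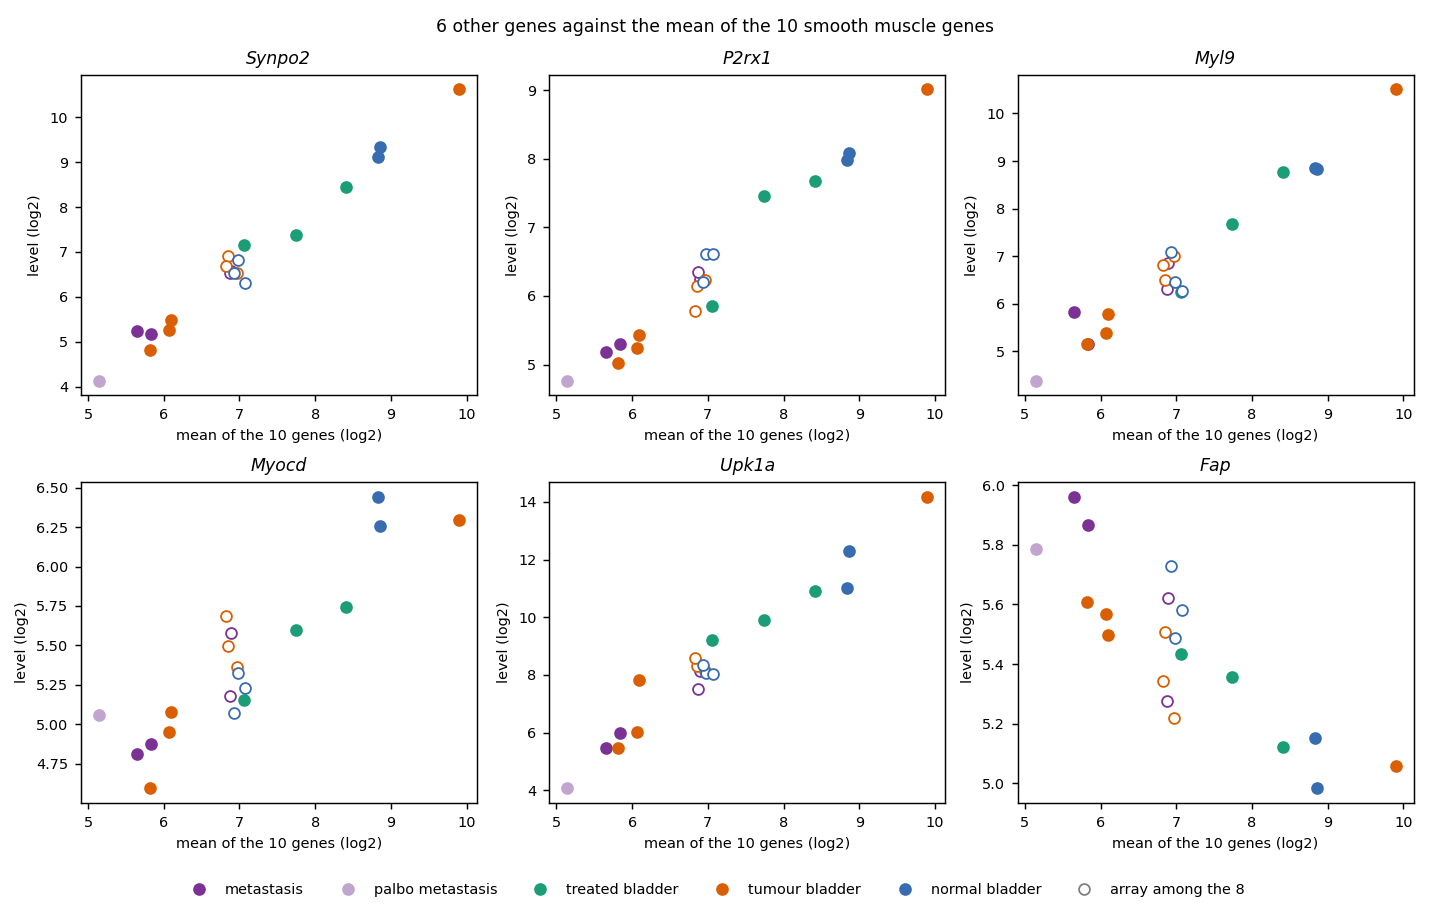
Log2 level of 6 other genes (vertical) against the mean of the 10 members (horizontal) on each array, coloured by group, with the 8 arrays that stand apart as open points. Synpo2, P2rx1, Myl9 and the uroplakin Upk1a climb with the members over the 12 arrays, Myocd less closely, and Fap runs the other way, while the open points form a cluster near 7 on the horizontal axis.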

How the data were processed

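The RNA came from a kit meant for FFPE tissue and was hybridised to Affymetrix whole-transcript arrays, per the labels' protocols. Per the submitters' processing notes, the authors used RMA and Affymetrix Expression Console (versions not given in the sources used here). The deposited values were read as log2 levels, the scale on which RMA works. They reached 22.0, and 96 to 222 rows on each array lay above 16, the top of a 16-bit scale. The members stayed below that level on every array. The source of the values above it was not tested. The genome build of the array's design is not given in the sources used here. No scanner files were used here, so the background correction and any slide or scan batch could not be examined. No 2 arrays held identical values.

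Of 65956 rows, 30604 have exactly 1 gene symbol in the platform annotation, and 827 older symbols were brought up to date through RefSeq. For 355 genes with several rows the row with the highest mean was kept, which left 30142 genes. Groups come from the sample titles. A linear model with 5 group means was fitted in limma 3.58.1 (R 4.3.3) with empirical Bayes variances, 2-sided tests and Benjamini-Hochberg adjustment over all genes at 0.05. The model was also run on simulated data, whose spread came from a fit to these arrays. The same model was fitted without the 8 arrays that stand apart. In picking these, dim rows were those with a mean of 4.5 to 5.0 over all arrays. Bright rows (5293) were those with a mean of at least 7 over all arrays. Correlations are descriptions without p-values. List values are means over the measured genes of a list. Genes of the wider lists were named by the 3 smallest p-values in metastasis against normal, treated against tumour and tumour against normal bladder, and genes like the members by the 10 highest and 5 lowest correlations, predicted genes left out. Flna, Ppp1cb, Ppp1r12c, Rhoa, Rock1, Vim, Mrtfa and Mrtfb were named outside these rules, for their correlations, after values were seen. The members, lists and alternatives were chosen with earlier results of these data known. Some genes of the wider lists were not analysed here.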

Additional observations from a re-analysis of the deposited data

Results flagged for a closer look

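Tumour bladder 7 lay farther above the other 6 tumour bladders than expected of a group of 7 for all 10 members, by the gap to its nearest neighbour as a share of the group's range (Dixon's test at 95%). Of 30 groups of 4 to 10 arrays tested, these 10 stood out, where chance gives about 1 in 20 for separate tests. The 10 share 1 array, and the members vary together, so they are not 10 separate results. Tumour bladders 3, 4 and 5 are among the arrays that stand apart, so the group mixes both kinds of array. Levels on tumour bladder 7 were 12.16 for Acta2, 11.55 for Actg2 and 11.63 for Myh11. Cnn1 stood at 9.33, Tagln at 11.41 and Des at 8.44. Tpm2 stood at 8.78, Smtn at 7.17, Pcp4 at 9.92 and Pgm5 at 8.58. For Acta2 the next tumour bladder was at 7.79, a gap of 0.672 of the range.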

How the results depend on the processing

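No member passed the adjusted threshold in limma under any setting tested. The lowest adjusted p of a member was 0.185, for Pcp4 in metastasis against normal bladder with array weights, and the range over settings for that comparison reached 0.994. Genes called numbered 3 without the 8 arrays in metastasis against tumour bladder and 3 in metastasis against normal bladder, and 1 (Gm3534) with only those 2 groups in the fit. For arrays with the same replicate number, deviations from group means correlated above 0.1 in 0 of 5, 1 of 3, 0 of 2, 0 of 4 and 0 of 3 pairs. Some pairs hold 1 of the 8 arrays, which were picked for low correlations. The check thus cannot show whether the numbers pair the arrays. With the number as a replicate block the median member difference was -1.39 in tumour and -0.49 in treated bladders set against normal ones. It was 0.88 in treated bladders against tumour bladders, and -0.44 and -1.84 in metastases against tumour and normal bladders, with 0 genes called.

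The median for metastasis against normal bladder was -3.39 without the 8 arrays and -0.15 on these alone, and that for treated against normal bladder was -1.24 both with array weights and without the 8 arrays. Leaving out 1 of the 20 arrays it ran from -0.29 to 0.39. Leaving out 1 more of the 12 arrays, chosen after seeing the data and computed as values without a test, the median ran from -3.66 to -3.11 for metastasis against normal bladder and from -1.62 to -0.37 for metastasis against tumour bladder. Signs of uncalled differences turned as follows, and the cause was not tested. On the 8 arrays alone, Actg2 was 0.043 and Des 0.18 for tumour against normal, Acta2 6.2e-04, Actg2 0.15, Myh11 0.0011, Tagln 0.11, Smtn 0.032 and Pcp4 0.054 for metastasis against tumour, and Actg2 0.19 and Des 0.079 for metastasis against normal. With array weights, Actg2 was -0.10, Myh11 -0.045 and Tagln -0.014 for treated against tumour, and Actg2 -1.65 and Cnn1 -1.14 for treated against normal. In treated against normal, Cnn1 was -0.049 after renewed quantile normalisation, Smtn 0.026 with arrays centred on their medians, Actg2 -0.52 and Cnn1 -0.37 with the replicate block, Actg2 -1.37, Cnn1 -1.10, Des -0.61 and Tpm2 -0.014 without the 8 arrays, and Actg2 -0.032 and Cnn1 -0.17 with a term for them. The block also gave Smtn 0.043 for metastasis against tumour.

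With 1 array left out, treated against normal ran from -0.94 to 0.75 for Acta2, -0.89 to 1.01 for Actg2, -0.66 to 0.67 for Myh11, -0.31 to 0.46 for Cnn1, -0.79 to 0.51 for Tagln, -0.21 to 0.57 for Des, -0.15 to 0.58 for Tpm2, -0.10 to 0.089 for Smtn, -0.83 to 0.023 for Pcp4 and -0.29 to 0.32 for Pgm5. Metastasis against tumour ran from -0.79 to 0.29 for Acta2 and from -0.12 to 0.049 for Smtn, above 0 without tumour bladder 7.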
